A study of Rattus norvegicus with 8 samples.

Results

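The transcripts described here are those of the AP-1 factors Fos, Fosb, Fosl1, Fosl2, Jun, Junb and Jund and of Atf3, in the dentate gyrus (DG) of rats after status epilepticus (SE), a seizure that does not stop by itself. These 8 genes were chosen by name, with their low measured levels in estradiol-treated rats already known, so the differences between the groups below describe the genes and are no test of them. All non-control spots whose gene name was one of the 8 were taken, which gave 17 spots of 8 probes for 7 genes, among 35250 gene names on the array and 20825 genes with a usable value in every rat. No spot carried the name Fosb, which was not analysed here.

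All 8 rats were adult Sprague-Dawley females that had been ovariectomized (OVX), had received kainic acid and had gone through SE. The 4 rats named COS had received oil. The 4 rats named CES had received estradiol (E2). Per the labels, kainic acid was given at 16 mg/kg, pentobarbital ended SE after 5 h, and E2 was given as 4 doses of 2 µg at intervals of 24 h, of which 2 preceded SE and 2 followed it. The study's methods give another account, with a lower dose of kainic acid, diazepam to end SE and all E2 before SE, and name different times of tissue collection, and the files do not settle which holds for these rats. Every rat of both groups lacked ovaries and had seizures, so the comparison is of E2 with oil within SE, and rats without SE were not analysed here. Whole DG was used, and in such bulk tissue fewer cells of a type and less RNA per cell cannot be told apart. Total RNA of each rat was labelled with Cy3 (replicates 1 and 3 of each group) or Cy5 (replicates 2 and 4), and both rats of an array came from the same group, so array and group cannot be told apart other than through the spread between the 2 arrays of each group.

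AP-1 is a dimer of a Fos family protein with a Jun family protein, or of Jun proteins with each other, held together by a leucine zipper and bound to DNA by the basic region beside it. Fos, Fosb and Junb belong to the immediate early genes, which neurons transcribe within minutes of strong activity without new protein synthesis. Their messages are short-lived. Fosl1 and Fosl2 (Fra-1 and Fra-2) usually follow later, Jund is present in resting cells, and Jun is activated by the JNK kinases in stressed and injured neurons. Atf3 is a stress-induced bZIP factor of the ATF/CREB family that is scarce in healthy brain, rises in injured neurons and glia and can pair with Jun. In seizure work, Fos in granule cells is a standard marker of recent activity.

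The probes decide which stretch of each message was measured. The sequences below are the designs of 4 probes that lie in coding sequence, shown because the leucine zipper, the part through which these proteins pair, is itself the target of the Fos probe and of the dimmer Jund probe. Capitals mark leucine codons that stand 7 codons apart in Fos and Jund, and the stop codon in Junb; the Fosl2 probe has no part in capitals.
Fos probe: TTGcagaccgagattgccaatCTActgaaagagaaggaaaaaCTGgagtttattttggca
Jund dimmer probe: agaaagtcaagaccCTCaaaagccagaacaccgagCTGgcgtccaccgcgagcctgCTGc
Junb probe: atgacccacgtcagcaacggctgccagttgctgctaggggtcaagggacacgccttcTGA
Fosl2 probe: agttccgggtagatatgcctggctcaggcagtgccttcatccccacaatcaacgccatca
The files place the Fos probe at chr6:109561099-109561158 on the plus strand of rn4, the dimmer Jund probe at chr16:19240333-19240392 on the minus strand and the Junb probe at chr19:24832781-24832840 on the plus strand. The Atf3 probe lies at chr13:107191691-107191749 and the single Jun probe, printed in 10 spots, at chr5:115358764-115358823, both on the minus strand. The Fosl1 probe lies at chr1:208098827-208098886 on the plus strand and the brighter Jund probe at chr16:19239704-19239763 on the minus strand. The Fosl2 probe has no position in the files.

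The level of a gene was the signal of its spots over the median valid spot of the same channel, on the log2 scale, where 0 is that median. A spot was valid where its signal was at least 2 times the local background. All 7 genes were valid in every rat, and every gene averaged lower in CES than in COS. In 6 of the 7 (all but Jund) all 4 CES rats lay below all 4 COS rats, which also held for 19.7% of all genes tested, while all CES rats lay above all COS rats for 1.55%. The median difference of the 7 genes was -2.39 on the log2 scale, and that of all genes tested was -0.25.

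**Figure D1:**
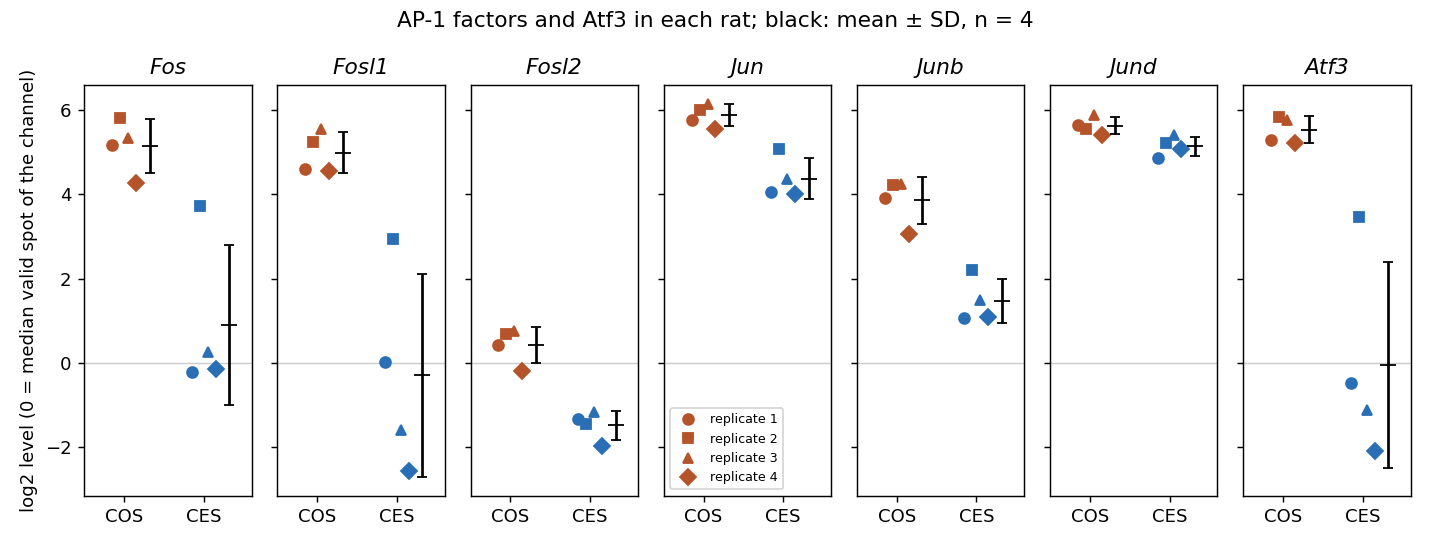
Log2 level (y axis, 0 is the median valid spot of the channel) of each gene in each rat of COS and CES (x axis), with the replicate number as the marker and the mean ± SD of 4 rats in black. CES replicate 2 stands above the other CES rats for Fos (3.73), Fosl1 (2.95) and Atf3 (3.47), and only Jund has groups that meet.

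Fos encodes the founding partner of Jun in AP-1. Its log2 level was 5.18, 5.82, 5.35 and 4.27 in COS replicates 1 to 4 and -0.22, 3.73, 0.25 and -0.15 in CES replicates 1 to 4. CES replicates 1, 3 and 4 thus lay near the median spot of the array, while CES replicate 2 lay closer to the COS rats than to them. In signal above background the spot gave 11849, 32464, 9713 and 13865 units in COS and 232.5, 8257, 244.5 and 447.5 units in CES, and it was well above background in all rats. The difference was -4.25 (standard error 0.74, n = 4 per group), a 19.0-fold lower level in CES. It was -5.22 (standard error 0.31), or 37.3-fold, without CES replicate 2, and -3.58 without CES replicate 4, which leaves replicate 2 a larger weight. Of the 20825 genes, 21 had a lower difference than Fos.

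Fosl1, the late Fos family member that lacks the transactivation domain of Fos, had the largest difference of the AP-1 factors. Its levels were 4.61, 5.24, 5.55 and 4.56 in COS and 0.016, 2.95, -1.59 and -2.57 in CES. Again the groups did not meet and CES replicate 2 was the highest CES rat. The difference was -5.29 (standard error 0.95), a 39.1-fold lower level. It was -6.52 (standard error 0.44) without CES replicate 2, -4.38 without CES replicate 3 and -4.01 without CES replicate 4. In CES replicate 3 the spot was not well above background, so the low end of the CES levels is close to what the array can read. Ccl2, Sprr1al, Atf3 and Spp1 were the only genes with a lower difference, a ranking read after the values were seen.

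Fosl2, the other late Fos relative, was a dim spot. Its levels were 0.43, 0.68, 0.77 and -0.19 in COS and -1.34, -1.45, -1.17 and -1.97 in CES. Unlike the case of Fos and Fosl1, CES replicate 2 lay among the other CES rats. The difference was -1.91 (standard error 0.22), a 3.75-fold lower level, and -1.05 with normexp background correction. All 4 COS rats showed the spot well above background, but of the CES rats only replicates 2 and 4 did.

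Jun, the main Jun family activator and the substrate of JNK, was read by 10 spots of the same probe, of which 8 were free of outlier flags and were averaged. Its levels were 5.77, 6.02, 6.16 and 5.57 in COS and 4.06, 5.08, 4.36 and 4.02 in CES. Jun therefore stayed far above the median spot in every CES rat. The difference was -1.50 (standard error 0.26), a 2.83-fold lower level, and -1.76 (standard error 0.19) without CES replicate 2. Taken singly, the 10 spots gave differences from -1.61 to -1.35 with an SD of 0.092, and all 10 separated the groups. Within a rat the SD over the 10 spots was 0.13 to 0.30, which is the technical spread alone.

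Junb, an early-response Jun protein with weaker transactivation, had levels of 3.91, 4.22, 4.26 and 3.05 in COS and 1.08, 2.21, 1.49 and 1.10 in CES. The lowest COS rat (replicate 4) lay 0.84 above the highest CES rat (replicate 2). The difference was -2.39 (standard error 0.33), a 5.25-fold lower level, and -2.69 without CES replicate 2. Its spot was well above background in all 8 rats.

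Jund, the Jun protein of quiescent cells, stood apart from the rest by how little it moved. Its levels were 5.66, 5.56, 5.89 and 5.41 in COS and 4.86, 5.22, 5.41 and 5.08 in CES. The highest CES rat (replicate 3) just reached the lowest COS rat (replicate 4). The difference was -0.49 (standard error 0.18), a 1.40-fold lower level, and -0.23 once the genome-wide median was subtracted. The Jund value rests on its brighter probe, with a difference of -0.47 and SDs of 0.19 in COS and 0.22 in CES. The dimmer probe in the zipper gave -1.21 with SDs of 1.05 and 0.97, so it ranged over more than the difference between the groups.

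**Figure D2:**
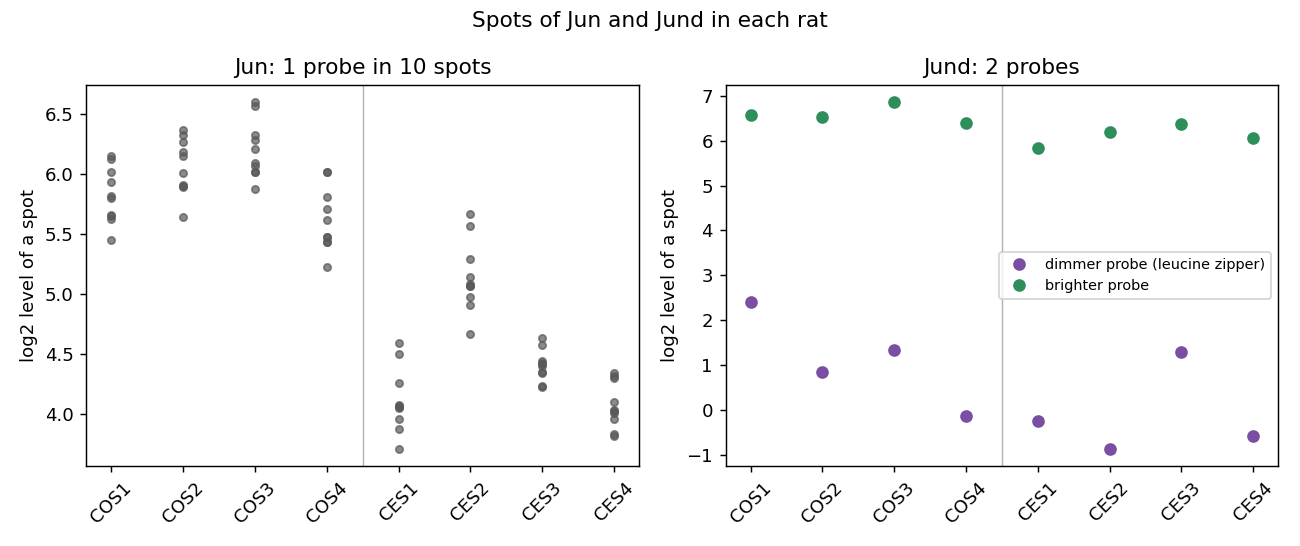
Log2 level (y axis) of single spots in each rat (x axis): left, the 10 spots of the Jun probe; right, both Jund probes. In each of the 10 Jun spots the CES rats lie below the COS rats, with CES replicate 2 the highest CES rat, while the dimmer Jund probe scatters with an SD of 1.05 in COS.

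Atf3 had the largest difference of the 7 genes. Its levels were 5.30, 5.85, 5.76 and 5.23 in COS and -0.49, 3.47, -1.11 and -2.09 in CES. The COS rats were tightly grouped (SD 0.32, n = 4) and the CES rats were widely spread (SD 2.44, n = 4). The signal above background was 12845, 33160, 12950 and 26960 units in COS and 193, 6911, 95 and 116.5 units in CES, and the spot was well above background in 3 of 4 CES rats (not in replicate 3). The difference was -5.59 (standard error 0.93), a 48.2-fold lower level in CES. It was -6.86 (standard error 0.30), or 116-fold, without CES replicate 2, -4.87 without CES replicate 3 and -4.41 without CES replicate 4. Among the 20825 genes, only Ccl2 (-6.82) and Sprr1al (-5.72) had a lower difference.

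CES replicate 2 was the highest CES rat for 5 of the 7 genes, against 16.2% of all genes. On the scale from the mean of the other CES rats to the mean of the COS rats it lay 72.5% of the way for Fos, 69.5% for Atf3, 68.0% for Fosl1, 53.9% for Jun and 37.6% for Junb, but 2.36% for Fosl2 and 19.3% for Jund. This rat was not particular to the AP-1 genes. Over the 3442 genes whose COS mean and mean of the other CES rats differed by more than 1 on the log2 scale, its median position was 53.2%, compared with -6.83%, 17.9% and -41.2% for CES replicates 1, 3 and 4 measured the same way. Among the COS rats, replicate 4 was the lowest for 7 of 7 genes and replicate 3 the highest for 5 of 7. The shares of all genes with these rats in those places were not computed, so these counts are not read as a trait of the AP-1 genes. The spread of Fos within CES was larger than that of 99.6% of genes, and for Fosl1 and Atf3 it was larger than that of 99.9%.

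The dyes can be read apart, since each group had 2 rats in each. In Cy3 (replicates 1 and 3) the difference was -5.25 for Fos, -5.86 for Fosl1, -1.86 for Fosl2, -1.76 for Jun, -2.80 for Junb, -0.64 for Jund and -6.33 for Atf3. In Cy5 (replicates 2 and 4, with CES replicate 2 among them) it was -3.26, -4.71, -1.96, -1.24, -1.98, -0.34 and -4.85 in the same order. Within each dye both COS rats lay above both CES rats for all 7 genes, Jund included. The share of all genes for which this held was not computed, so the count is not read as a trait of these genes. The stricter condition, all 4 CES rats below all 4 COS rats, held for 19.7% of all genes.

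**Figure D3:**
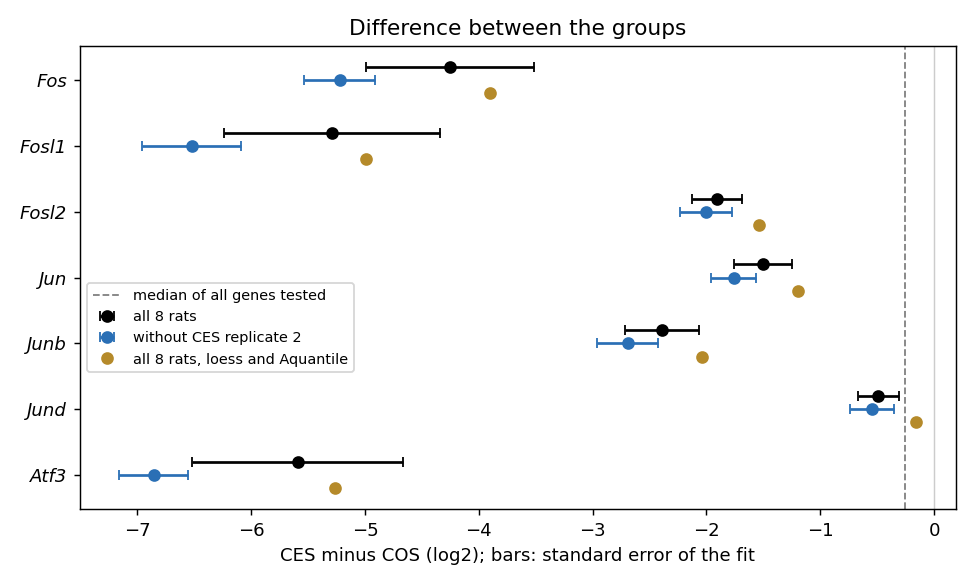
CES minus COS difference (x axis, log2) of each gene (y axis) with all 8 rats, without CES replicate 2 and, as points alone, after loess and Aquantile normalization; bars are the standard error of the fit and the dashed line is the median of all genes tested. Without CES replicate 2 Atf3 moves from -5.59 to -6.86, and the order of the genes by size is the same in the 3 versions.

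How the channels were scaled moved these genes along with the rest of the genome. After loess and Aquantile normalization the median of all genes was 0.08 in place of -0.25, and the differences were -3.91 for Fos, -4.99 for Fosl1, -1.54 for Fosl2, -1.20 for Jun, -2.04 for Junb, -0.16 for Jund and -5.27 for Atf3. With each scaling's own median subtracted, which takes such a shift out, they were -3.99 for Fos, -5.07 for Fosl1, -1.62 for Fosl2, -1.28 for Jun, -2.12 for Junb, -0.24 for Jund and -5.35 for Atf3. With the main scaling the values less the median were -4.00, -5.03, -1.65, -1.25, -2.14, -0.23 and -5.34. The standard errors after loess and Aquantile were 0.94, 1.11, 0.18, 0.27, 0.35, 0.14 and 1.12 in the same order. In the main fit they were 0.74, 0.95, 0.22, 0.26, 0.33, 0.18 and 0.93.

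Cell type markers were read in the same rats, as the sum of the linear levels of each list. The sums did not overlap between the groups for markers of leukocytes (59.6 to 109 in COS, 7.72 to 26.5 in CES, mostly Lyz2), of microglia and macrophages (30.2 to 46.5 against 17.0 to 24.5) and of interneurons (164 to 313 against 60.6 to 137). Of 3 leukocyte genes tested only Lyz2 was called lower. Of 6 microglia and macrophage genes Itgam, Csf1r and Cd68 were called lower, and 1 of the 6 after loess or with normexp. Of all genes tested 28.6% were called lower. The interneuron sum is mostly that of Sst (-1.61, called lower); Gad1 (-0.57) and Gad2 (-0.58) were not called, and Pvalb had the opposite sign (0.51, adjusted p = 0.071, and 0.023 after loess). Among the CES rats, replicate 2 had the highest leukocyte sum (26.5) and the highest interneuron sum (137), a microglia sum of 23.6 below that of replicate 3, and the lowest sums for neurons (309), granule cells (18.8), astrocytes (151) and oligodendrocytes (297). The ranges overlapped for markers of granule cells (16.3 to 29.4 against 18.8 to 25.2), neurons (258 to 345 against 309 to 432), astrocytes (177 to 194 against 151 to 231), oligodendrocytes (220 to 399 against 297 to 449), endothelium (19.4 to 25.7 against 17.0 to 24.7) and choroid plexus (1.29 to 21.2 against 2.53 to 7.37, with COS replicate 2 alone at 21.2). The granule cell genes Calb1, C1ql2, Dsp, Tdo2 and Neurod1 were measured in every rat, and moved in both directions, with C1ql2 (-1.23), Dsp (-1.24) and Tdo2 (-0.57) called lower and Neurod1 (1.16) called higher. After loess Dsp and Neurod1 kept their calls, with adjusted p of 0.062 for C1ql2 and 0.19 for Tdo2. Prox1, which defines these cells, had a valid spot in 3 of 4 rats of each group and was well above background in none. The part of cell makeup in the AP-1 differences was not tested.

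The genes around AP-1 were read from lists of its bZIP partners, the JNK kinases, the serum response factor (SRF) that drives Fos transcription, proteins that bind the AU-rich elements of short-lived messages, genes with AP-1 elements described in their regulatory DNA, targets described for the Fosb splice form ΔFosB, and genes that accompany Atf3 and Jun in injured neurons. In limma over all 20825 genes, 35 of the 60 list genes tested were lower in CES and 4 were higher at an adjusted p of 0.05. Of all genes tested 28.6% were lower and 5.74% were higher in that fit, a split that turned to 1836 lower and 3150 higher after loess and Aquantile normalization, with 20 and 8 of the list genes. Without COS replicate 3 only 8 list genes were called lower and 1 higher.

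Genes with described AP-1 elements were the list with the lowest median difference, -2.74. Of the 13 tested 12 were lower and 0 higher, against 28.6% and 5.74% of all genes. The groups did not overlap for 11, and all CES rats lay below all COS rats for 19.7% of all genes. The list was chosen with earlier results of these data known. Ccl2, a chemokine that draws monocytes, differed by -6.82 (standard error 1.25, adjusted p = 0.0049), with levels of 6.46, 7.08, 5.96 and 6.16 in COS and -2.05, 4.32, -0.63 and -3.25 in CES. Spp1, the matrix protein osteopontin, differed by -5.45 (standard error 1.40, adjusted p = 0.016). Cd44, the hyaluronan receptor, differed by -4.42 (standard error 0.79, adjusted p = 0.0047), and Timp1, an inhibitor of metalloproteinases, by -4.20 (standard error 0.90, adjusted p = 0.0080). As for Fos, CES replicate 2 was the highest CES rat of each of these, at 4.32 for Cd44 and 6.96 for Timp1. Hmox1 (-3.20), Vim (-2.76) and the opioid precursors Penk (-2.74) and Pdyn (-1.90) were also called lower, and Mmp9 (-1.25, adjusted p = 0.11) was not. The calls of Timp1 (adjusted p = 0.055), Vim (adjusted p = 0.059) and Spp1 (adjusted p = 0.076) were lost after loess. The list's calls fell to 2 without COS replicate 3 and to 7 after loess and Aquantile normalization, and rose to 13 without CES replicate 2. Another 7 genes of the list were left out because a spot was not valid in every rat or carried an outlier flag. Of these Mmp3, Plau and Plaur rose well above background in all 4 rats of COS and in 1 of CES.

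Of the bZIP partners 6 of 10 tested were lower and 0 higher, with a median difference of -0.83. Mafk, a small Maf protein, differed by -1.48 (standard error 0.29) and Nfe2l2, the regulator of antioxidant genes that pairs with small Maf proteins, by -1.46 (standard error 0.16, adjusted p = 0.0025). Atf4, the effector of the integrated stress response, differed by -1.18 (standard error 0.22, adjusted p = 0.0053). Its levels were 7.24, 7.37, 7.53 and 7.09 in COS and 5.79, 6.63, 6.27 and 5.82 in CES, with no overlap. Ddit3 (CHOP), which Atf4 and Atf3 both regulate, differed by -0.84 (standard error 0.19, adjusted p = 0.0096), a call that loess normalization ended (adjusted p = 0.068). Jdp2 and Maf had positive differences of 0.61 and 0.48 that were not called, though Maf was called higher after loess (0.88, adjusted p = 0.023). After loess 4 of the 10 were lower and 1 higher, and with normexp 1 was lower and 0 higher. Without COS replicate 3 the call of Nfe2l2 was the 1 that held among the 10.

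The JNK list did not stand below the genome. Its median difference was -0.27 beside -0.25 for all genes, and 0.10 beside 0.08 after loess and Aquantile normalization. Of the 9 tested 2 were lower, the kinases Mapk8 (JNK1; -0.68, standard error 0.20, adjusted p = 0.026) and Map3k4 (-0.86, standard error 0.19, adjusted p = 0.0097), and 1 was higher, the scaffold Mapk8ip2 (0.52, standard error 0.18, adjusted p = 0.049). With loess and Aquantile scaling 0 of the 9 were lower and 3 higher. None of these calls held in limma with normexp background correction or without COS replicate 3. Srf itself was not called, at -0.39 (standard error 0.18, adjusted p = 0.12), with levels of 3.90, 4.01, 4.12 and 3.67 in COS and 3.28, 3.81, 3.59 and 3.45 in CES. Of its cofactors Elk3 (-1.26, standard error 0.31), Elk4 (-1.03, standard error 0.19) and Mkl1 (-0.52, standard error 0.16) were lower, 3 of 5 tested in the SRF list, and Elk4 alone was called without COS replicate 3. After loess and Aquantile normalization 1 of the 5 was lower and 1 higher, with adjusted p of 0.093 for Elk3 and 0.41 for Mkl1, and with normexp 0 were called.

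Among the proteins that bind AU-rich elements 2 of 5 tested were lower, Zfp36l1 (-1.20, standard error 0.19, adjusted p = 0.0037) and Hnrnpd (-0.56, standard error 0.19, adjusted p = 0.047). The call of Hnrnpd was lost after loess (-0.25, adjusted p = 0.29), and with normexp 0 of the 5 were called. Zfp36 (tristetraprolin), which speeds the decay of Fos-like messages and is an immediate early gene itself, was read well above background in all 4 rats of COS and in 1 of CES, so no difference was fitted. Of the 5 ΔFosB targets Gria2, a subunit of AMPA receptors, was higher by 1.89 (standard error 0.23, adjusted p = 0.0029), with levels of 2.83, 2.28, 3.16 and 2.42 in COS and 4.89, 3.66, 4.95 and 4.78 in CES. Here CES replicate 2 was the lowest CES rat. Hdac1 (-0.88, standard error 0.22) and Nfkb1 (-1.25, standard error 0.24) were lower, while Calb1 (-0.28, adjusted p = 0.38) and Cdk5 (0.14, adjusted p = 0.59) were not called. The median of this list was -0.28, near that of all genes, and Hdac1 lost its call after loess (adjusted p = 0.098).

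Of the 13 injury genes tested 8 were lower and 2 higher, with a median of -1.06. Gal, the neuropeptide galanin, differed by -3.48 (standard error 0.58, adjusted p = 0.0039), with levels of 5.47, 5.23, 5.27 and 4.59 in COS and 1.43, 3.74, 0.84 and 0.62 in CES. Gadd45a, a DNA damage response gene, differed by -3.28 (standard error 0.51, adjusted p = 0.0036), the small heat shock protein gene Hspb1 by -3.39 (standard error 0.93, adjusted p = 0.020) and Stat3 by -2.07 (standard error 0.36, adjusted p = 0.0045). Hspb1 lost its call after loess (adjusted p = 0.099). The neuropeptide genes Npy (-1.91), Adcyap1 (-1.64) and Vip (-1.06) were lower as well. Cacna2d1 (0.48) and Stmn2 (0.79), the latter also in the neuron list, were higher, and the growth cone gene Gap43 (-0.11, adjusted p = 0.68) was not called. Without COS replicate 3 the counts were 3 lower and 0 higher. Among the named genes of the lists around AP-1 the calls of Gal, Gadd45a, Gria2 and Nfe2l2 held in every limma alternative. Among the granule cell markers that of Neurod1, which was higher, did so too. No call held in the methods' t-test after adjustment.

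**Figure D4:**
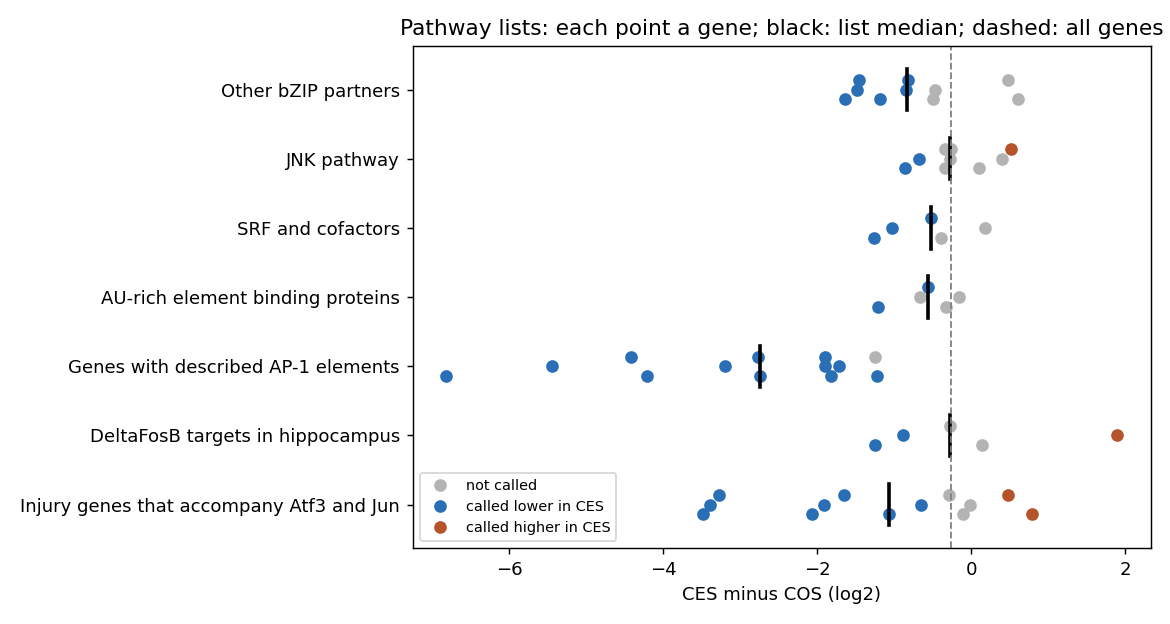
CES minus COS difference (x axis, log2) of the genes of each list (y axis): blue, called lower in CES; red, called higher; grey, not called; black bars are list medians and the dashed line is the median of all genes tested. Genes with described AP-1 elements have the lowest median (-2.74), and the JNK list lies at that of all genes.

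Across the 8 rats some genes had almost the same pattern as Fos, Jun or Atf3, measured as Pearson r of the log2 levels. The rats fall into their groups and share arrays and dyes, so r is given as a description only, with r after the group and dye means were removed beside it. The 5 genes most like Fos were Rplp2 (r = 0.998, after removal 0.992), Slc1a5 (0.996, 0.991), Emp1 (0.996, 0.981), the transcript TC591688 (0.996, 0.982) and Klf4 (0.995, 0.990). Rplp2 shared the order of the rats but not the size, with a difference of -1.02. For Jun they were Hist2h3c2 (0.998), Fbxo27 (0.997), Myc (0.997), Plat (0.996) and LOC690517 (0.996). For Atf3 they were Cd14, the lipopolysaccharide co-receptor (0.9997, after removal 0.999, difference -5.05), TC610459 (0.997), Inhba (0.997), Bcl3 (0.996) and Ddx39a (0.996). CES replicate 2 lay 62.8 to 75.7% of the way from the other CES rats to COS for the genes most like Fos. It lay at 46.2 to 55.0% for those of Jun and at 64.7 to 74.7% for those of Atf3.
Among the AP-1 genes, Atf3 was most like Fosl1 (r = 0.994, after removal 0.982) and Fos (0.984, 0.929), and least like Jund (0.740, 0.265). By r with Atf3 over all genes tested, Fosl1 had rank 16, Fos rank 98 and Jund rank 4539.

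Promoter sequence was held for 5 of the 8 genes in the RefSeq table used (GRCr8, 250 bases before to 50 after the start), Fosb, Fosl1, Fosl2, Junb and Jund. The pair below, Junb and Jund, are Jun family genes of which one separated the groups and the other did not, and the 120 bases before the start are shown. Capitals mark TATAA and, in Jund, CGTCA, the reverse strand of TGACG.
Junb: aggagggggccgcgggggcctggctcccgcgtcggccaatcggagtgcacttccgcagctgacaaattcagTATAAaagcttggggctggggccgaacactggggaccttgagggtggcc
Jund: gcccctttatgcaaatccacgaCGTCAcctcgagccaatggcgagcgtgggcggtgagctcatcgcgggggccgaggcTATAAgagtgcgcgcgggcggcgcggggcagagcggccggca
The Junb stretch is chr19:40081006-40081125 on the plus strand and the Jund stretch chr16:18769772-18769891 on the minus strand. Over the whole window and on both strands, TGACG, the core of the cAMP response element, was found in 3 of the 5 (Fosl1, Junb and Jund) against 19.0% of 27457 promoters. TGACGTCA, which contains TGACG on each strand, was found in 1 (Jund, 221 bases before the start) against 1.70%, and TATAA in 3 (Fosb, Junb and Jund) against 24.1%. The AP-1 site TGACTCA, the estrogen response element GGTCANNNTGACC and the CArG box of SRF were in none of the 5, against 3.98%, 0.0219% and 1.5% of promoters. Such matches are letters only and do not show whether a factor binds.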

How the data were processed

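RNA from the DG of 8 rats was measured on 4 2-colour arrays of 1 slide, with 1 rat per channel. The authors deposited the intensity of every spot and its local background per channel (Agilent Feature Extraction 10.7.3.1, per the submitters' processing notes), before any normalization of their own, together with log2 values, which the files show to be the median signal less background with each channel centred on its own median.

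A spot was used where its mean signal was at least 2 times its background median in all 8 rats and it carried no outlier flag (26294 of 43379 non-control spots). Signal minus background was divided by the channel's median valid spot, averaged over a gene's spots and put on the log2 scale. The share of valid spots was 74.6 to 88.9% in COS and 70.7 to 81.5% in CES, and the number of arrays limits the precision. The median standard error was 0.20. A RefSeq accession gave the gene name of 17512 of 41012 probes, and the rest kept the name in the files.

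CES was compared with COS in limma 3.58.1 (R 4.3.3), with dye as a fixed term and array as a random block (statmod 1.5.0; consensus correlation -0.010) by a two-sided test. Each array held 1 group, so the standard errors depend on that correlation. They are also limma's moderated values, in which the variance of each gene is drawn toward that of all genes. The correlation was not the same in every fit. It ran from -0.51 without the dye term to 0.56 with normexp, with 0.23 after loess and Aquantile and 0.21 without COS replicate 3. Calls were made at an adjusted p (Benjamini-Hochberg over all genes) of 0.05. The fit was also run on simulated data with independent errors and no array effect, which does not bear on the array block. The labels call the rats biological replicates. Rats sharing a number also shared a dye. The fit with a replicate block was an alternative, as were other background corrections, scalings, filters, each rat left out, and the methods' t-test.

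The genes, lists and alternatives were chosen with earlier results of these data known. The keeping of outlier-flagged spots was added after seeing the data. From each list up to 4 called genes with the largest differences were to be named, with Atf4, Ddit3, Timp1, Gal, Srf and Zfp36 whatever their values; other list genes were named after their values were seen. The values of 1 list gene are not reported here. Figures were drawn in matplotlib 3.10.9, and values were handled in pandas 2.3.3 under Python 3.11.15.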

Additional observations from a re-analysis of the deposited data

Results flagged for a closer look

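Among the 7 genes and the named list genes, a rat that stood apart from the other 3 of its group by Dixon's test at the 95% level was found in 5 of 64 groups of 4 rats, where chance gives about 1 in 20. In 4 of the 5 it was CES replicate 2. It lay at a log2 level of 3.73 for Fos (other CES rats -0.22 to 0.25), 4.32 for Cd44 (-0.12 to 0.52), 3.92 for Gadd45a (1.14 to 1.58) and 3.66 for Gria2 (4.78 to 4.95), each time on the side of the COS rats. CES replicate 4 lay at 1.22 for Nfe2l2 (other CES rats 1.49 to 1.54), away from the COS rats.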

How the results depend on the processing

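All 7 genes stayed lower in CES in all 144 combinations of gene and alternative, of which 135 moved by less than the spread between rats. The genes were chosen with their low CES levels known and the alternatives reuse the same rats, so neither count is a test. That spread, with CES replicate 2 in it, was 1.42 for Fos and 1.74 for Fosl1 and Atf3. Large moves of these 3 genes therefore stayed within it. Leaving out 1 rat gave -5.22 to -3.58 for Fos, -6.52 to -4.01 for Fosl1, -2.08 to -1.72 for Fosl2, -1.76 to -1.33 for Jun, -2.72 to -2.18 for Junb, -0.58 to -0.35 for Jund and -6.86 to -4.41 for Atf3. Fosl2 moved to -1.05 with normexp, to -2.35 with the scanner's processed signal and to -1.51 with common-spot scaling (the channel median taken over spots that every rat had valid), which took Jun to -1.10. Jund moved to -0.71 with the processed signal, -0.16 after loess and Aquantile, -0.21 after quantile normalization, -0.091 with common-spot scaling and -0.13 in the deposited table. With spots well above background in every rat, Fosl1, Fosl2 and Atf3 had no value.

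Over all genes, 1195 were higher and 5957 lower in CES. The counts were 139 and 492 with normexp, 3150 and 1836 after loess and Aquantile, 3023 and 2257 after quantile normalization, 3384 and 1783 with common-spot scaling, 403 and 2820 without the filter, and 3285 and 1936 in the deposited table, so the split follows the scaling. Without 1 rat they ran from 285 to 1812 higher and from 1142 to 6954 lower, the lowest in both without COS replicate 3. The methods' t-test called 0 and 0 after adjustment (726 and 5183 at an unadjusted p under 0.05, against 1787 and 7638 in limma). Of the list genes, 4 were higher and 35 lower. In place of these, normexp gave 1 and 14, loess and Aquantile 8 and 20, common-spot scaling 7 and 19, the deposited values 7 and 20, and the t-test 0 and 0, while the higher count was 2 with the processed signal, 7 after quantile normalization and 1 without the filter. Leaving out 1 rat gave 1 to 7 higher and 8 to 37 lower.

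With a replicate block, 1050 genes were higher and 6055 lower, and 2 and 36 of the list genes. Rats of the same number correlated at 0.33, 0.21, 0.31 and 0.35 in their deviations from the group means, but at -0.17, -0.28, -0.20 and 0.09 once the dye means were removed, so the numbers were not read as pairing the rats.

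Levels near background in CES limit Fosl1, Fosl2 and Atf3, whose differences there are the least certain at the low end.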
